A study of Arabidopsis thaliana with 12 samples.

Results

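The genes described here encode proteins that loosen or remodel the cell wall: the expansins, the xyloglucan endotransglucosylase/hydrolases (XTH) and the glycosyl hydrolase family 9 (GH9) endoglucanases. Members were taken by name, as every single-gene probe set of the ATH1 array whose symbol in the platform's annotation begins with EXPA, EXPB, EXLA, EXLB, XTH or GH9. The root hair expansins EXPA7 and EXPA18 were left out by that rule. It gave 40 genes among 22746 probe sets other than the array's controls, each gene with 1 probe set: 8 alpha-expansins (EXPA), 4 beta-expansins (EXPB), 3 expansin-like A genes (EXLA), 1 expansin-like B gene (EXLB), 9 XTH genes and 15 GH9 genes. The RefSeq gene table for TAIR10.1 names 85 genes of these families by the same starts of symbols, so the values cover part of each family. A further 4 family probe sets that the annotation assigns to several genes were not counted as members.

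The study profiled green fluorescent cells sorted from excised root tips of 5-day-old Arabidopsis thaliana seedlings of ecotype C24. All 12 arrays come from plants that are otherwise wild type, per the labels, and carry J0571, an enhancer trap line in which GAL4 drives UAS-GFP in the ground tissue of the root, that is, in cortex and endodermis. The control group was J0571 alone, and 3 further groups were J0571 plants with UAS-driven BLUEJAY (BLJ), JACKDAW (JKD) or SCARECROW (SCR), which are regulators that pattern the same tissue. There were 3 arrays in each of the 4 groups, described in the labels as biological replicates of sorted root tip cells. The labels do not give the number of independent transgenic lines. In such bulk samples, fewer cells of a type and less RNA per cell cannot be told apart.

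A growing plant cell is held by cellulose microfibrils tied together by xyloglucan and pectin. Expansins loosen the contacts between these polymers at acid pH without cutting them; XTH proteins cut xyloglucan chains and rejoin them or, in some members, hydrolyse them; GH9 enzymes cut beta-glucan chains. Within GH9, class A proteins are anchored in membranes and include the KORRIGAN cellulases of cellulose synthesis, class B proteins are secreted, and class C proteins carry an additional cellulose-binding module. In the root these families act where cells leave the meristem and elongate.

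A few members gave bright probe sets, and many lay near the lower end of the array's range. Of the 40 members, 32 were bright enough to be tested, that is, brighter on average over all arrays than the dimmest 30% of probe sets, which ended at an intensity of 0.735. The median probe set averaged 0.828; 22 members were brighter than it and 7 were among the brightest 10% of probe sets. The 8 members that were not tested averaged 0.670 to 0.706: EXPA21, EXPA24, XTH26, XTH29, GH9A4, GH9B6, GH9B11 and GH9B16. Just above the limit stood GH9B17 at 0.747 and EXPA16 at 0.751. Among the 32 tested members, 4 had a group mean under the limit, namely EXPA16 on the arrays labelled JKD at 0.709, GH9B12 and GH9B17 on those labelled BLJ at 0.734 and 0.725, and GH9C1 on those labelled SCR at 0.726. The brightest members were the neighbouring root genes XTH19 and XTH18, with means of 8.35 and 6.67 over the 12 arrays, followed by GH9B7 at 3.38, EXPB1 at 3.16, EXPA9 at 2.94, GH9C2 at 2.89 and EXLA1 at 2.38. Brightness depends on each probe set's own probes, so these means do not rank transcript amounts. Several members lie next to each other in the RefSeq gene order with 0 genes between: XTH18 and XTH19, EXLA1 and EXLA3, GH9B11 and GH9B12, and GH9B16, GH9B17 and GH9B18.

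**Figure D1:**
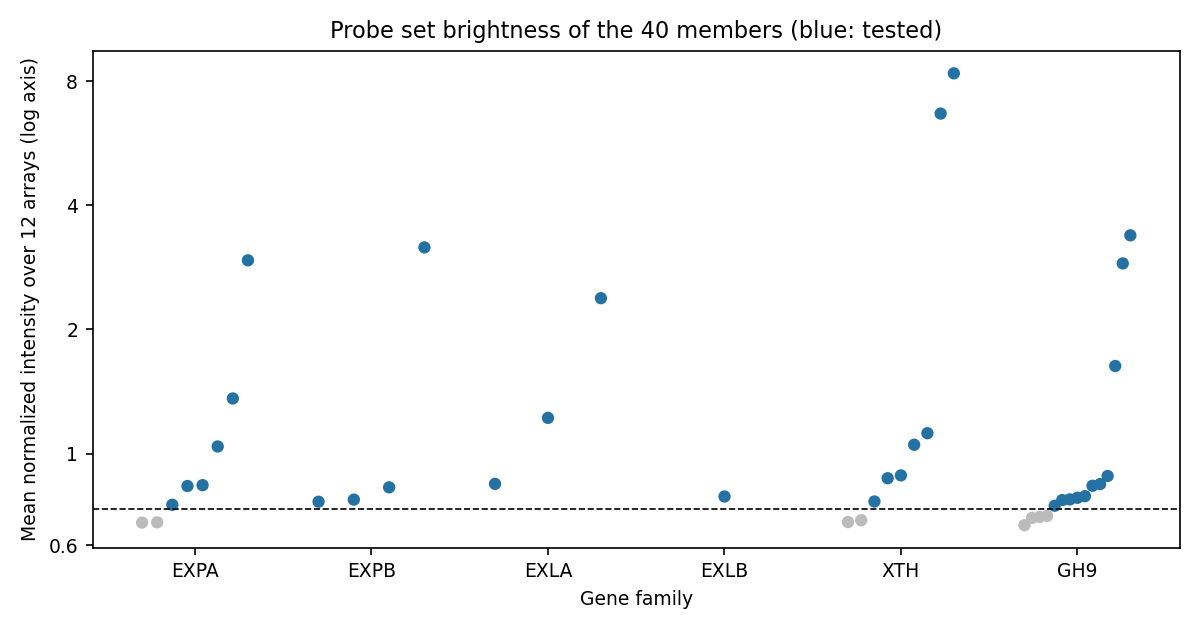
Mean quantile-normalized intensity of the 40 members over the 12 arrays, on a log axis, by family; each point is a gene, and the dashed line is the brightness limit of 0.735. The 8 grey points under the line, at 0.670 to 0.706, were not tested, and XTH19 and XTH18 stand highest at 8.35 and 6.67.

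The deposited values are unlogged intensities between 0.513 and 77.9, and their scale is unknown. Array medians lay between 0.785 and 0.866, and on the log2 scale the 3 controls and SCR 2 had a standard deviation of 0.67 to 0.70, the other 8 arrays one of 0.81 or more, so the arrays differed in spread before they were quantile-normalized here. The probe set of the BLJ gene (AT1G14580) averaged 0.804 ± 0.021 (SD, n = 3) on the arrays labelled BLJ and 0.923 ± 0.0198 in the controls, and that of JKD averaged 0.838 ± 0.00716 on the arrays labelled JKD and 0.859 ± 0.0353 in the controls. Neither BLJ nor JKD was thus raised on its own arrays. For SCR no single-gene probe set was found by its locus, so its level was not checked. The groups are called by their labels alone. The 4 cortex markers were all measured, and their summed level was 3.51 to 4.1 in the controls, 4.75 to 4.98 on the arrays labelled BLJ, 4.12 to 4.32 for JKD and 3.99 to 4.22 for SCR; the cortex marker AT1G62500 was dim throughout, at 0.766 ± 0.0355 in the controls. Of 13 endodermis markers, 2 were measured, with sums of 9.04 to 11.8 in the controls and 6.83 to 11.4, 9.85 to 12.6 and 7.49 to 10.3 on the arrays labelled BLJ, JKD and SCR. The mean log2 level of 12 heat shock genes was highest on BLJ 3, control 3 and BLJ 1, at 1.24, 1.10 and 1.05, and 0.56 to 0.84 on the other 9 arrays.

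Against the control, 1 of the 32 members rose in the group labelled BLJ, 1 rose and 1 fell in that labelled JKD, and 0 were called in that labelled SCR. A call is an adjusted p under 0.05 in a limma fit over all 12 arrays and all 15923 probe sets tested, and differences are on the scale of log2(intensity + 0.703), which understates the change of dim genes. The same rule called 4.26% of all probe sets in BLJ against control (1.82% higher and 2.44% lower), 2.74% in JKD against control (0.867% higher and 1.88% lower) and 0.396% in SCR against control (0.170% and 0.226%), so a count of 1, 2 and 0 in 32 was near what the whole array gave. With no adjustment, p was under 0.05 for 9, 7 and 6 members, against 19.1%, 19.1% and 16.6% of all probe sets. The median log2 difference of the 32 members was -0.01, -0.02 and 0.01 in the 3 comparisons, and that of all probe sets 0.00, 0.01 and 0.00. These comparisons share their 3 control arrays.

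Between the groups with driven factors, 3 members were higher in BLJ than in JKD, 1 was higher and 1 lower in BLJ than in SCR, and 0 were called between JKD and SCR. The share of all probe sets called was 1.71% in BLJ against JKD (1.02% higher and 0.697% lower), 1.55% in BLJ against SCR (0.973% and 0.578%) and 0.490% in JKD against SCR (0.308% and 0.182%). An unadjusted p under 0.05 was found for 9, 11 and 9 of the 32 members, against 12.1%, 16.4% and 10.5% of all probe sets. The members' shares were larger in each, as were the 9.38% and 6.25% called in BLJ against JKD and against SCR. These called shares rest on 3 and 2 members, and the members as a set were not tested. The members' median log2 difference was 0.00, -0.01 and -0.01 against 0.00, 0.00 and 0.00 for all probe sets. Groups whose arrays do not overlap were found for 9 members in BLJ against control, where 21.0% of all probe sets had none, for 9 in JKD against control (23.2%) and for 8 in SCR against control (19.1%). The counts were 9 in BLJ against JKD (19.2%), 14 in BLJ against SCR (23.7%) and 9 in JKD against SCR (20.4%). All 8 calls fell on 5 genes, of which 4 are XTH genes and 1 is an alpha-expansin. None of the 4 tested EXPB, 4 tested EXLA and EXLB or 11 tested GH9 genes was called in any of the 6 comparisons.

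**Figure D2:**
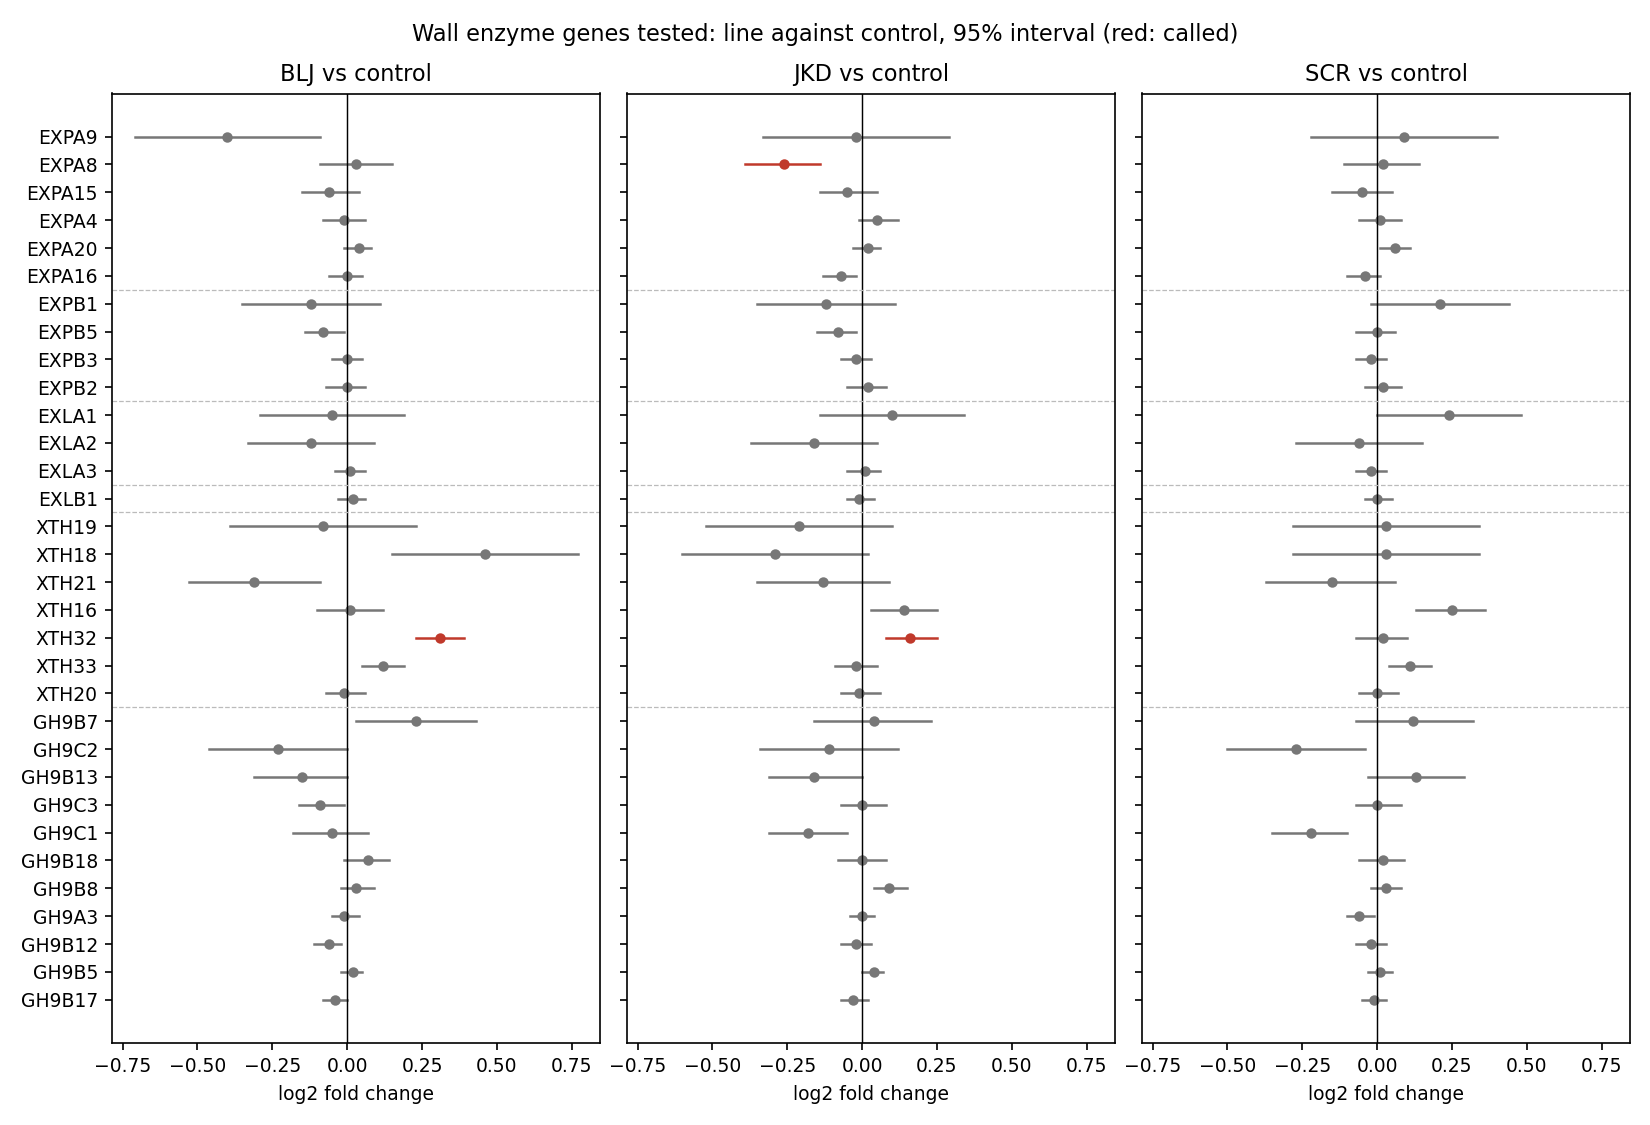
Log2 difference from the control of each of the 32 tested members, on the scale of log2(intensity + 0.703), with 95% intervals of the limma fit, in panels for BLJ, JKD and SCR; red marks an adjusted p under 0.05. The red points are XTH32 in BLJ at 0.31 and in JKD at 0.16 and EXPA8 in JKD at -0.26.

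XTH32 gave the firmest difference. It belongs to the small clade of XTH proteins that includes xyloglucan hydrolases. Its probe set (AT2G36870) read 0.716, 0.764 and 0.769 in the controls, 1.19, 0.98 and 1.13 on the arrays labelled BLJ, 0.964, 0.855 and 0.952 on those labelled JKD, and 0.782, 0.753 and 0.767 on those labelled SCR. All 3 BLJ arrays stood above all 9 others, the JKD arrays stood above every control and SCR array, and the control and SCR arrays overlapped. In BLJ against control the log2 difference was 0.31 ± 0.04 (SE; 95% interval 0.23 to 0.39; adjusted p = 0.00183), from means of 0.749 ± 0.0291 (SD, n = 3) to 1.1 ± 0.108. In JKD against control, with a JKD mean of 0.924 ± 0.0598, it was 0.16 ± 0.04 (0.08 to 0.25; adjusted p = 0.0438). The group labelled SCR, at 0.767 ± 0.0145, differed from the control by 0.02 (adjusted p = 0.86) and lay below BLJ, which was higher by 0.29 ± 0.04 (0.21 to 0.38; adjusted p = 0.00335). The differences of BLJ and of JKD from the control were 0.15 apart and did not pass the test (adjusted p = 0.089; as deposited 0.16, adjusted p = 0.046), and neither did that of JKD from SCR, also 0.15 (adjusted p = 0.168).

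The calls of XTH32 in BLJ held when any 1 of the 12 arrays was left out, with adjusted p from 0.000355 to 0.0145 against control and from 0.000577 to 0.0235 against SCR. Without the 3 arrays highest in heat shock genes, which leaves BLJ 2 as the only BLJ array, they were 0.22 (adjusted p = 0.078) and 0.20 (adjusted p = 0.0802). The JKD call was lost without any of control 1, 2 or 3, BLJ 3, JKD 1, JKD 3 or SCR 1, 2 or 3. The adjusted p was then from 0.0544 without BLJ 3 to 0.175 without JKD 1. It was also lost with the 6 JKD and control arrays alone (adjusted p = 0.0808) and with the dimmer 50% of probe sets left out (0.0627). The control mean of XTH32, 0.749, lay near the brightness limit of 0.735. The summed cortex markers were higher on all BLJ arrays than on all others, higher on all JKD arrays than in the controls, and overlapped between JKD and SCR, where XTH32 did not. Of these 4 markers, AT1G09750 averaged 2.15 in BLJ, 1.75 in JKD, 1.59 in SCR and 1.37 in the control, AT1G62510 0.856, 0.857, 0.835 and 0.809, AT3G21670 1.09, 0.879, 0.905 and 0.931, and AT1G62500 0.748, 0.761, 0.805 and 0.766, so they did not share 1 order. Their part in the XTH32 values was not tested.

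XTH18 showed the widest called difference, between BLJ and JKD. It is a root-expressed XTH whose gene lies next to that of its close relative XTH19. The probe set of XTH18 (AT4G30280) read 5.34, 5.82 and 7.86 in the controls, 8.94, 8.14 and 9.52 on the arrays labelled BLJ, 4.62, 5.51 and 4.88 on those labelled JKD and 7.2, 6.83 and 5.31 on those labelled SCR. Each BLJ array was above every array of the other groups, with control 3 the nearest, while JKD overlapped with the controls and with SCR. BLJ, at 8.87 ± 0.693, was higher than JKD, at 5.01 ± 0.459, by a log2 difference of 0.75 ± 0.14 (95% interval 0.44 to 1.05; adjusted p = 0.018). Its difference from the control mean of 6.34 ± 1.34 was 0.46 ± 0.14 (adjusted p = 0.0954) and from the SCR mean of 6.45 ± 1 was 0.43 ± 0.14 (adjusted p = 0.161), neither of which passed.

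The size of the XTH18 differences from the control, and for JKD their direction, depended on the scale. As deposited, the 3 control arrays read 4.08, 4.28 and 5.74, the BLJ arrays 11.1, 9.33 and 9.88, the JKD arrays 6.11, 5.3 and 5.7 and the SCR arrays 7.85, 4.85 and 5.78. On that scale BLJ was higher than the control by 1.01 (adjusted p = 0.00263), and by 1.06 (adjusted p = 0.0029) when each array was centred on its median. JKD against control was -0.29 after quantile normalization (adjusted p = 0.293) but 0.26 as deposited and 0.31 after median centring. SCR against control stayed above 0, at 0.03, 0.33 and 0.36. The BLJ against JKD difference was 0.75 under all 3, with an adjusted p of 0.0496 as deposited and 0.0807 after median centring. It lost its call without BLJ 1 (adjusted p = 0.053), BLJ 3 (0.107), JKD 1 (0.106) or JKD 3 (0.0789), and without the 3 arrays highest in heat shock genes (0.102). Those 3 arrays were also the ones where XTH18 read 8.94, 9.52 and, for control 3, the highest control value of 7.86; the part of the heat shock level in these values was not tested.

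XTH19, with normalized values from 6.11 to 10.7, was not called in any comparison. Its group means were 8.77 ± 1.67 in the control, 8.2 ± 0.279 in BLJ, 7.51 ± 1.37 in JKD and 8.9 ± 0.748 in SCR, and its log2 differences from the control were -0.08, -0.21 and 0.03 with adjusted p of 0.842, 0.464 and 0.942. As deposited, the same differences were 0.49, 0.36 and 0.35, all 3 above 0 and none called. Those of XTH18 were also above 0 on that scale, at 1.01, 0.26 and 0.33. In BLJ against JKD, where XTH18 was called, XTH19 differed by 0.13 after quantile normalization (adjusted p = 0.824). Whether the neighbours differ from each other was not tested.

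**Figure D3:**
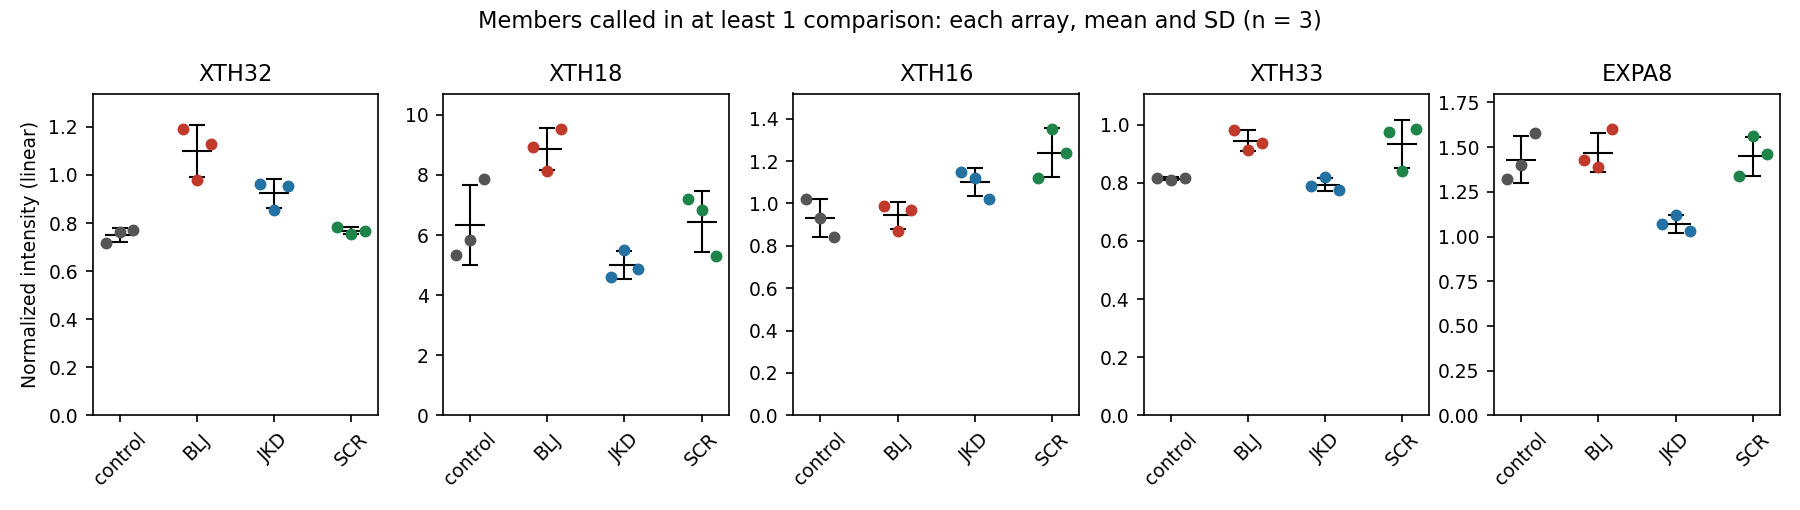
Quantile-normalized intensity of XTH32, XTH18, EXPA8, XTH16 and XTH33 on each of the 12 arrays, 3 per group; points are arrays, bars are group means with their SD and each vertical axis starts at 0. XTH32 and XTH18 are highest on the arrays labelled BLJ, EXPA8 is lowest on those labelled JKD, and XTH33 is higher for BLJ and SCR than for the control and JKD.

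EXPA8, an alpha-expansin, was the only member called lower than the control after quantile normalization, in the group labelled JKD. Its probe set (AT2G40610) read 1.32, 1.4 and 1.58 in the controls, 1.43, 1.39 and 1.6 on the arrays labelled BLJ, 1.07, 1.12 and 1.03 on those labelled JKD and 1.34, 1.56 and 1.46 on those labelled SCR. The 3 JKD arrays lay below all 9 others, and the remaining groups overlapped. The JKD mean of 1.07 ± 0.0479 was lower than the control mean of 1.43 ± 0.133 by a log2 difference of -0.26 ± 0.06 (95% interval -0.39 to -0.14; adjusted p = 0.0313). BLJ, at 1.47 ± 0.11, was higher than JKD by 0.29 ± 0.06 (0.17 to 0.41; adjusted p = 0.0201). JKD against SCR, at 1.45 ± 0.109, was -0.28 and just missed the threshold (adjusted p = 0.0517).

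The JKD against control call of EXPA8 did not hold without quantile normalization: the difference was -0.14 as deposited (adjusted p = 0.112) and -0.09 after median centring (adjusted p = 0.38), where BLJ against control was 0.24 (adjusted p = 0.0441). It was also lost without control 3 (adjusted p = 0.0715), JKD 1 (0.132), JKD 2 (0.0596) or JKD 3 (0.125), with the 6 arrays of both groups alone (0.0896), and without the 3 arrays highest in heat shock genes (0.0694). Relative to the median of all probe sets, EXPA8 in JKD against control was -0.27 after quantile normalization and -0.16 on both other scales. The BLJ against JKD difference was 0.33 as deposited and 0.33 after median centring, called in both. Its call after quantile normalization was lost without BLJ 3 (0.121), JKD 1 (0.0966), JKD 2 (0.0578) or JKD 3 (0.101). Without the 3 arrays highest in heat shock genes it was 0.24.

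XTH16 was highest in the group labelled SCR. Its probe set (AT3G23730) read 1.02, 0.929 and 0.841 in the controls, 0.989, 0.87 and 0.971 on the arrays labelled BLJ, 1.15, 1.12 and 1.02 on those labelled JKD and 1.12, 1.35 and 1.24 on those labelled SCR. All SCR arrays stood above all control and BLJ arrays, control and BLJ overlapped, and JKD lay between them and overlapped with SCR. BLJ, at 0.944 ± 0.0641, was lower than SCR, at 1.24 ± 0.115, by a log2 difference of -0.23 ± 0.05 (95% interval -0.35 to -0.12; adjusted p = 0.0412). SCR against the control mean of 0.931 ± 0.0915 was 0.25 ± 0.05 and did not pass (adjusted p = 0.0625); as deposited and after median centring it was 0.23 and 0.26 and passed (adjusted p = 0.0277 and 0.0288). JKD against control was 0.14 (adjusted p = 0.153), and 0.16 and 0.21 on the other 2 scales, both called. Leaving out control 2, BLJ 1, 2 or 3, JKD 1 or 2, or SCR 2 or 3 ended the BLJ against SCR call, at adjusted p from 0.056 without control 2 to 0.186 without SCR 2, as did fitting the 6 arrays of both groups alone (0.0569) and leaving out the 3 arrays highest in heat shock genes (0.11).

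XTH33, an XTH with a predicted membrane anchor, was higher on the arrays labelled BLJ than on those labelled JKD. Its probe set (AT1G10550) read 0.817, 0.809 and 0.816 in the controls, 0.982, 0.911 and 0.938 for BLJ, 0.788, 0.82 and 0.774 for JKD and 0.976, 0.839 and 0.984 for SCR. BLJ and SCR arrays lay above all control and JKD arrays and overlapped with each other, as did control and JKD. The called difference, BLJ against JKD, was 0.14 ± 0.03 (95% interval 0.07 to 0.21; adjusted p = 0.0493). Against the control mean of 0.814 ± 0.00449, BLJ at 0.944 ± 0.0358 differed by 0.12 (adjusted p = 0.0566) and SCR at 0.933 ± 0.0814 by 0.11 (adjusted p = 0.136), neither passing. As deposited and after median centring, BLJ against JKD was 0.16 in both (adjusted p = 0.00534 and 0.0116), JKD against SCR was called at -0.18 and -0.15 (adjusted p = 0.00762 and 0.0405), and BLJ against control was 0.08 (adjusted p = 0.0778) and 0.13 (adjusted p = 0.0208). After quantile normalization the BLJ against JKD call stood at the edge of the threshold: it was lost without control 1 or 2, any BLJ or JKD array, or SCR 1, at adjusted p from 0.0562 without SCR 1 to 0.193 without JKD 1, with no filter on dim probe sets (0.0503), and without the 3 arrays highest in heat shock genes (0.45).

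**Figure D4:**
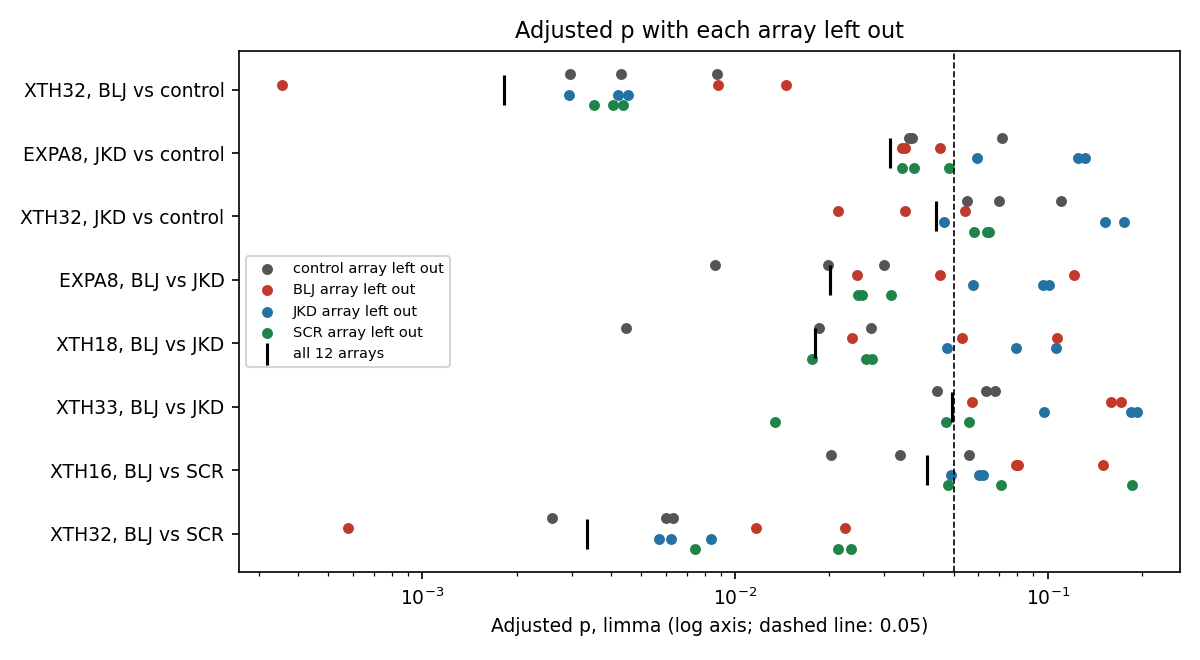
Adjusted p of the 8 called differences when each of the 12 arrays is left out in turn (points, coloured by the group of that array), on a log axis with the threshold of 0.05 as a dashed line and the value from all 12 arrays as a black bar. XTH32 in BLJ against control and against SCR stays under the threshold in all 12 fits, at most at 0.0145 and 0.0235, and the other 6 calls cross it.

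The remaining XTH genes gave no call. XTH21, an XTH known for its part in primary root growth, read 1.16, 1.07 and 1.73 in the controls and 0.994, 0.926 and 0.827 on the arrays labelled BLJ. Its BLJ arrays did not overlap with the controls, yet control 3 alone carried most of the control spread, and the difference of -0.31 ± 0.10 did not pass (adjusted p = 0.105); it was -0.23 as deposited and -0.19 after median centring. In JKD and SCR its means were 1.14 ± 0.197 and 1.1 ± 0.055. XTH20, the close relative of XTH18 and XTH19, was dim at 0.760 to 0.770 in the 4 groups and differed from the control by -0.01, -0.01 and 0.00.

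Among the other alpha-expansins, EXPA9 had the widest difference from the control that was not called. It read 3.2, 3.75 and 2.45 in the controls and 1.85, 2.7 and 2.03 on the arrays labelled BLJ, with means of 3.13 ± 0.651 and 2.19 ± 0.448. The arrays overlapped, and the log2 difference of -0.40 ± 0.14 did not pass (adjusted p = 0.14); it was -0.03 as deposited and 0.02 after median centring, so its direction rests on the normalization. BLJ lay below SCR, at 3.36 ± 0.429, without overlap, by -0.49 ± 0.14 (adjusted p = 0.113), and by -0.35 and -0.33 on the other 2 scales. EXPA15, EXPA16 and EXPA20 differed from the control by at most 0.07 in size in any group; EXPA16 in JKD, at -0.07 (adjusted p = 0.15), was -0.15 as deposited and -0.10 after median centring and called in both (adjusted p = 0.00523 and 0.0144).

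The beta-expansin EXPB1 had its highest values on the arrays labelled SCR, at 3.9, 3.46 and 3.94, against 3.18, 3.39 and 2.91 in the controls. These arrays did not overlap, but the difference of 0.21 ± 0.11 did not pass (adjusted p = 0.345), nor did those of BLJ from SCR and of JKD from SCR, both -0.33 (adjusted p = 0.153 and 0.278). On the deposited and median-centred scales EXPB1 was 0.45 and 0.48 in SCR against control, while BLJ and JKD, at -0.12 against control after quantile normalization, were both 0.28 and 0.33 there and differed from SCR by -0.17 and -0.15, none of them called. EXPB5 averaged 0.872 ± 0.0734 in the control, 0.791 ± 0.0178 in BLJ and 0.782 ± 0.0132 in JKD, differences of -0.08 in both (adjusted p = 0.178 and 0.14) that were -0.12 and -0.13 as deposited, called in both (adjusted p = 0.0144 and 0.00751), and -0.07 and -0.08 after median centring, called in JKD alone (adjusted p = 0.063 and 0.0364). EXPB2 and EXPB3 were dim and differed from the control by at most 0.02 in size, although EXPB3 in JKD was -0.09 as deposited and called there (adjusted p = 0.0295). Of the expansin-like genes, whose wall activity is less well known than that of the true expansins, EXLA1 averaged 2.23 ± 0.313 in the control and 2.74 ± 0.156 in SCR, where the difference of 0.24 ± 0.11 did not pass (adjusted p = 0.306); it was 0.41 as deposited and 0.44 after median centring, not called. In JKD against control EXLA1 was 0.10 (adjusted p = 0.659), 0.42 as deposited (adjusted p = 0.0514) and 0.48 after median centring, where it was called (adjusted p = 0.0437). EXLA2 differed from the control by -0.12, -0.16 and -0.06 in the groups labelled BLJ, JKD and SCR (adjusted p = 0.563, 0.408 and 0.784), and the neighbour of EXLA1, EXLA3, by at most 0.02 in size.

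The GH9 genes had no call in 6 comparisons after quantile normalization. Of the 11 tested, 3, 2 and 3 had an unadjusted p under 0.05 in BLJ, JKD and SCR against control. The shares of all probe sets were 19.1%, 19.1% and 16.6%. The median log2 difference of the 11 GH9 genes was -0.04, 0.00 and 0.00. GH9B7, the brightest of them and a predicted secreted endoglucanase, read 3.48, 3.19 and 2.67 in the controls and 3.69, 3.89 and 3.7 on the arrays labelled BLJ. The arrays did not overlap, and the difference of 0.23 ± 0.09 did not pass (adjusted p = 0.181). On the other 2 scales it was wider and called, at 0.65 as deposited (adjusted p = 0.0114) and 0.70 after median centring (adjusted p = 0.0127). In JKD against control it was 0.04, 0.45 and 0.50 on the 3 scales and called on the latter 2 (adjusted p = 0.047 and 0.0437). GH9B12, GH9B17 and GH9C3 in BLJ against control were -0.06, -0.04 and -0.09, not called. As deposited they were -0.13, -0.11 and -0.11 and called (adjusted p = 0.0155, 0.0296 and 0.0351). GH9B17 was also called there in JKD, at -0.11 (adjusted p = 0.0276). After median centring, GH9B12 in BLJ was called at -0.08 (adjusted p = 0.0392) and the others were not.

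GH9C1 and GH9C2 belong to the class with the additional binding module. GH9C1 read 0.931, 0.801 and 1.19 in the controls, 0.9, 0.912 and 0.9 on the arrays labelled BLJ, 0.782, 0.727 and 0.8 on those labelled JKD and 0.71, 0.688 and 0.781 on those labelled SCR. The JKD and SCR arrays lay below every control and BLJ array; the differences from the control were -0.18 ± 0.06 (adjusted p = 0.114) and -0.22 ± 0.06 (adjusted p = 0.1). As deposited they were -0.20 and -0.22 and called (adjusted p = 0.00363 and 0.0256), and after median centring -0.15, called, and -0.19, not called (adjusted p = 0.0245 and 0.0636). BLJ against SCR was 0.17 (adjusted p = 0.173), and 0.16 and 0.18 on these other scales, called in both (adjusted p = 0.0426 and 0.0342). The root hair expansins showed a like order: EXPA7 averaged 0.93 ± 0.157 in the control, 0.902 ± 0.0313 in BLJ, 0.769 ± 0.0104 in JKD and 0.715 ± 0.041 in SCR, and both it and GH9C1 read highest on control 3, at 1.11 and 1.19. The summed level of EXPA7 and EXPA18, the 2 measured of 7 root hair markers, was 1.61 to 2.18, 1.75 to 1.84, 1.55 to 1.57 and 1.42 to 1.53 in these groups, and its part in the GH9C1 values was not tested. GH9C2 averaged 3.27 ± 0.172 in the control, 2.71 ± 0.48 in BLJ, 2.98 ± 0.0114 in JKD and 2.6 ± 0.41 in SCR, with differences of -0.23, -0.11 and -0.27 (adjusted p = 0.263, 0.618 and 0.228); as deposited they were 0.18, 0.31 and -0.01 and after median centring 0.22, 0.36 and 0.02, so the direction depended on the scale. GH9B13 averaged 1.7 ± 0.115 in the control, 1.46 ± 0.142 in BLJ, 1.45 ± 0.0326 in JKD and 1.93 ± 0.254 in SCR. Its differences from the control were -0.15, -0.16 and 0.13 (adjusted p = 0.276, 0.264 and 0.386). BLJ and JKD did not overlap with SCR and differed from it by -0.28 and -0.29, short of the threshold (adjusted p = 0.0725 and 0.132). As deposited these were -0.21 and -0.21, and after median centring -0.20 and -0.18, none called. GH9B8 in JKD against control was 0.09 (adjusted p = 0.0585), and with the replicate number as a block, which the deviations of same-numbered JKD and control arrays allow, it was called (adjusted p = 0.0424).

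**Figure D5:**
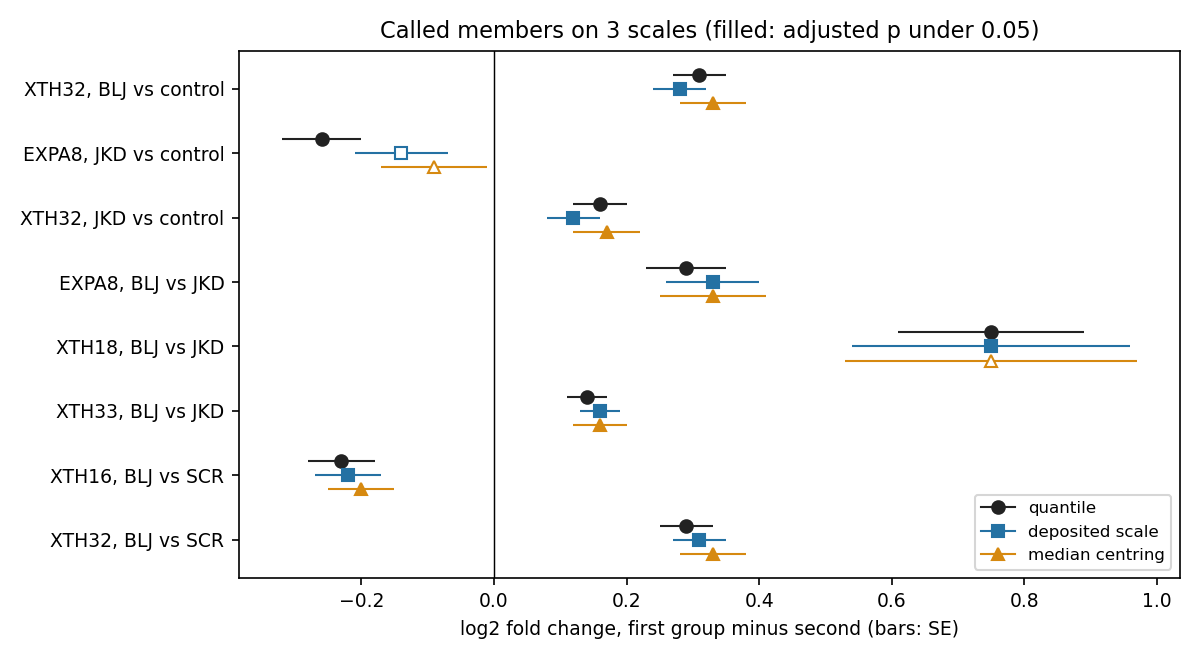
The 8 called log2 differences under quantile normalization, on the deposited scale and after median centring, with bars for the SE; filled points have an adjusted p under 0.05. XTH32 in BLJ against control lies at 0.31, 0.28 and 0.33 and is called on all 3 scales, whereas EXPA8 in JKD against control moves from -0.26 to -0.14 and -0.09 and loses its call. The median of all probe sets in JKD against control was 0.01, 0.02 and 0.07 on these scales.

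The scale changed how many members passed more than it changed the median. As deposited, 3 members were higher and 4 lower in BLJ than in the control, 3 higher and 5 lower in JKD, and 1 higher and 1 lower in SCR; after median centring these were 5 and 1, 5 and 3, and 1 and 0. Over all probe sets the share called in BLJ, JKD and SCR against control was 18.5%, 25.2% and 0.389% as deposited and 15.9%, 24.2% and 0.320% after median centring, so the 7 and 8 and the 6 and 8 members of 32 called in BLJ and JKD were near the share of the whole array. The median of the members ranged from -0.04 to 0.02 over the 3 scales and 3 comparisons. That of all probe sets in BLJ, JKD and SCR against control was 0.02, 0.02 and 0.01 as deposited. After median centring it was 0.06, 0.07 and 0.04. The members' medians lay below these, at -0.03, -0.04 and -0.01 as deposited and 0.02, 0.01 and 0.02 after median centring. XTH32 was the only member called in BLJ and in JKD against control on all 3 scales.

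Other wall genes taken by symbol were few on the array's single-gene annotation. The list of cellulose synthases and their relatives had 7 tested genes, all cellulose synthase-like: CSLC04, CSLC5, CSLC6 and CSLC12, of the family that makes the glucan backbone of xyloglucan, CSLA01 and CSLA03, of the family that makes glucomannan backbones, and CSLD2. Of these, 0 were called in any of the 6 comparisons, with medians against the control of 0.01, -0.02 and -0.04. The single tested gene for cellulose organisation and the single tested pectin gene were not called either, and the lists for xyloglucan side chains and trimming, arabinogalactan proteins, extensins and acid growth had no tested member.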

How the data were processed

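Affymetrix ATH1 arrays were hybridized with biotin-labelled RNA, and per the labels' protocols both one-cycle and two-cycle labelling were used, without a statement of which array had which. The deposited intensity values were made by the authors with MAS5, per the submitters' processing notes; their scaling is not given in the sources used here. Control probe sets (55 of 22801) were removed, the other values were quantile-normalized, an offset of 0.703 (the 20th percentile) was added and log2 was taken. The dimmest 30% of probe sets by the mean of all arrays were left out. Group means were fitted over all 12 arrays with limma 3.58.1 in R 4.3.3 (eBayes with trend and robust settings), with Benjamini-Hochberg adjustment over 15923 probe sets and calls at an adjusted p under 0.05; the fit was tested on simulated data. An exact permutation test of 3 against 3 arrays cannot go below 0.1 and was not used. The members and all gene lists were chosen with earlier results of these data known. Named with values were all called members, the 3 brightest of each family (EXLA and EXLB together) and the 2 with the largest difference from the control per family and group. XTH20, EXPA7, EXPA18, GH9B8, GH9C3, the tested CSL genes and the genes at the brightness limit were named after their values were seen. Alternatives were the deposited scale, median centring, no filter or a 50% filter, an offset of 1, both groups alone, the replicate number as a block, each array left out, and the 3 arrays highest in heat shock genes left out. Same-numbered JKD and control arrays deviated together in 3 of 3 pairs, and so did the differently numbered control 2 and JKD 1. For that comparison the block, fitted over all 12 arrays, is therefore given where it changes a call. No depth exists for arrays; their number limits the precision.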

Additional observations from a re-analysis of the deposited data

Results flagged for a closer look

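Between groups with driven factors, 5 differences passed the test of the difference itself, the limma contrast of both groups (n = 3 arrays each). XTH32 was higher in BLJ than in SCR by 0.29 on the log2 scale, above SCR on 3 of 3 arrays (adjusted p = 0.00335). EXPA8, XTH18 and XTH33 were higher in BLJ than in JKD by 0.29, 0.75 and 0.14, each without overlap of the arrays (adjusted p = 0.0201, 0.018 and 0.0493). XTH16 was lower in BLJ than in SCR by -0.23, again without overlap (adjusted p = 0.0412). Among all probe sets, 19.2% had no overlap in BLJ against JKD and 23.7% in BLJ against SCR. With each of the 12 arrays left out in turn, the XTH32 call was lost in 0 fits. EXPA8 and XTH18 lost theirs in 4 fits each, XTH16 in 8 and XTH33 in 9.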

How the results depend on the processing

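Of the values of named members under alternatives, 1324 kept their side of the threshold; 78 of these, called in neither fit, changed direction, among them 20 as deposited and 21 after median centring. A further 34 passed the threshold newly and 53 no longer passed, all in the same direction. In BLJ against control the members called went from 1 to 7 as deposited, 6 after median centring and 0 without control 3, BLJ 1 and BLJ 3, the arrays highest in heat shock genes, where the share of all probe sets went from 4.26% to 18.5%, 15.9% and 0.239%. In JKD against control they went from 2 to 8 as deposited, 8 after median centring, 1 with the dimmer 50% left out, 0 with both groups alone and 1 without the heat shock arrays (all probe sets: from 2.74% to 25.2%, 24.2%, 1.28%, 0.0816% and 1.15%). SCR against control went from 0 to 2 as deposited and 1 after median centring (0.396% to 0.389% and 0.320%). Without the heat shock arrays, BLJ against JKD went from 3 to 0, BLJ against SCR from 2 to 0 and JKD against SCR from 0 to 2 (EXPA8 at -0.28, adjusted p = 0.0221; XTH32 at 0.15, adjusted p = 0.0465), while the share of all probe sets went from 1.71% to 0.653%, 1.55% to 0.327% and 0.490% to 0.886%. JKD against SCR had 1 call as deposited, after median centring, with the dimmer 50% left out and with both groups alone (0.747%, 0.685%, 0.695% and 0.754%). The fit without the heat shock arrays keeps BLJ 2 as the only BLJ array, assumed to vary like the other groups. The cause of these moves was not tested.

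Leaving out 1 array gave 1 to 3 members called in BLJ against control (3 without control 2 or control 3), 0 to 4 in JKD against control (0 without control 3, JKD 1 or JKD 3, and 4 without control 2), 0 to 1 in SCR against control, 0 to 3 in BLJ against JKD (0 without BLJ 3, JKD 1 or JKD 3), 1 to 5 in BLJ against SCR (5 without control 3) and 0 to 1 in JKD against SCR. Over all probe sets the counts were 186 to 799, 7 to 680, 2 to 276, 78 to 471, 35 to 578 and 20 to 139.

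With the replicate number as a block, the members called were 1, 3, 2, 4, 3 and 1 in BLJ, JKD and SCR against control, BLJ against JKD, BLJ against SCR and JKD against SCR, and every call of the fit without the block was kept; the shares of all probe sets were 5.05%, 3.30%, 1.29%, 3.32%, 4.01% and 0.898%, and the new calls were GH9B8 in JKD (0.09), XTH16 (0.25) and GH9C1 (-0.22) in SCR, XTH32 in BLJ against JKD (0.15), GH9B13 in BLJ against SCR (-0.28) and EXPA8 in JKD against SCR (-0.28). Deviations of same-numbered arrays correlated over 0.1 in 11 of 18 pairs and those of differently numbered arrays in 11 of 36. All 3 pairs did so only for JKD and control (0.28 to 0.39), where the numbers were taken to pair the arrays. In the other 5 comparisons 1 or 2 of 3 pairs did. The differently numbered control 2 and JKD 1 correlated at 0.35, and the remaining differently numbered JKD and control pairs at -0.49 to -0.09. The pairing is thus assumed, and the block also covers the groups without such pairs.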

Other observations

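The probe set shared by GH9B14 and GH9B15, which the annotation does not assign to 1 gene, was lower than the control by -0.18 in BLJ (adjusted p = 0.0114) and by -0.17 in JKD (adjusted p = 0.0205), while in SCR it was -0.09 and did not pass (adjusted p = 0.193). Its group means were 0.875 in the control, 0.687 in BLJ, 0.697 in JKD and 0.774 in SCR, so in both called groups it was under the brightness limit of 0.735. The probe set shared by EXP26 and EXPA22 was -0.16 in both BLJ and JKD and did not pass (adjusted p = 0.0683 and 0.0688). EXGT-A3, an endoxyloglucan transferase that RefSeq also lists as XTH27, averaged 3.15 in the control, 3.17 in BLJ, 3.69 in JKD and 3.49 in SCR, with no call. EXPA7 and EXPA18 were -0.20 and -0.15 in SCR against control (adjusted p = 0.0842 and 0.136).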
